A study of Mus musculus with 4 samples.

Results

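The genes described here encode the lipid-sensing receptors PPARα, PPARδ and PPARγ (Ppara, Ppard, Pparg), the retinoid X receptors (Rxra, Rxrb, Rxrg), the estrogen-related receptors (Esrra, Esrrb, Esrrg) and the coactivator PGC-1α (Ppargc1a). They were taken by name: each probe set of the array whose annotation gave a single gene symbol, equal to 1 of these 10, was used. This gave 24 of the 45037 probe sets tested and 10 of the 18193 genes they name. A probe set is a group of short probes read out as 1 value. The values come from 4 single-colour Affymetrix arrays of heart RNA from C57B6 mice aged 3.6 months, kept without treatment. The 2 wild-type arrays form 1 group. The other 2 arrays are of hearts with the GSK-3alpha S21A knock-in, in which serine 21 of the kinase GSK-3α is replaced by alanine, so that Akt and related kinases cannot restrain the enzyme by phosphorylating this site. The labels name no Cre line, transgene or heart-specific promoter, and they do not say whether each array holds a separate animal. Therefore n counts arrays, and a p-value measures only the spread between these arrays, which may be technical.

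PPARs and their RXR partners bind DNA as heterodimers, and fatty acids and their derivatives serve as PPAR ligands. In the heart PPARα drives genes of fatty acid uptake and oxidation, ERRα and ERRγ drive genes of mitochondrial respiration, and PGC-1α is recruited by both kinds of receptor and raises their activity. Activity of these receptors is set largely by ligands, partners and phosphorylation, none of which an array measures. The comparison asks whether transcripts of the receptors themselves, the machinery through which cardiac fatty acid use is set, differ in a heart whose GSK-3α has lost its inhibitory serine.

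These receptors share a core DNA motif, AGGTCA, and the 5 stretches that follow are shown because they place it, or the core of a CREB site, just upstream of members. RefSeq promoter windows (GRCm38.p6) were found for all 10 genes, 19 windows in all, and the 250 bases before each start site were searched on both strands. The core AGGTCA or its reverse complement TGACCT lay in 4 of the 19 windows, belonging to Pparg, Rxra and Rxrg. Among all 32851 windows 14% held it, so these letters are common. The extended form CAAGGTCA favoured by ERRs, which contains that core, was in 0 member windows and in 1.33% of all windows. The core TGACG (reverse complement CGTCA), through which the cAMP-responsive factor CREB acts, was in 4 member windows, of Esrrb, Ppara, Ppargc1a and Rxrb, and in 17.8% of all windows. Each sequence is given 5′ to 3′ on the strand of its gene, and capitals mark the core.
Pparg, chr6:115361096-115361141, plus strand: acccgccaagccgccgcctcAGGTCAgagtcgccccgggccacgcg
Pparg, second start site, chr6:115362320-115362348, plus strand: tttatataagggacgcgaggAGGTCAaga
Rxra, chr2:27709224-27709269, plus strand: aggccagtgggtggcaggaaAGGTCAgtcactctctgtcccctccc
Rxrg, chr1:167618157-167618202, plus strand: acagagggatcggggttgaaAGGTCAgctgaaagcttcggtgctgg
Ppargc1a, chr5:51567750-51567794, minus strand: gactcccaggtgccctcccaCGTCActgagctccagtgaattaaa
The same Rxra window holds a second copy, as TGACCT, 87 bases before the start site. A match describes letters only, and binding was not measured.

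The targeted gene, Gsk3a, read 11.16 and 11.08 (log2 RMA signal) in wild-type and 10.62 and 10.80 in knock-in hearts, and this difference of −0.42 did not pass the test (limma adjusted p = 0.458). A substitution of a single residue need not alter transcript level, so the labels cannot be checked by it. Of the 10 members 0 lie on the chromosome that carries Gsk3a. Array medians lay between 6.14 and 6.23, and the SD of the difference between arrays was 0.24 within wild-type, 0.21 within knock-in and 0.23 to 0.31 across genotypes. RNA quality is read from control probe sets, as 3′ minus 5′ signal. For Gapdh this was 0.62 and 0.61 in wild-type and 0.54 and 0.76 in knock-in hearts. For actin it was 0.41 and 0.41 against 0.38 and 0.51. Both were highest on knock-in replicate 2, and the part of RNA quality in any value below was not tested. All 10 cardiomyocyte markers, such as Myh6 and Tnnt2, read at least 13.03 on every array. Of 15 liver markers all were higher in the knock-in hearts, with 14 not overlapping and 14 at an unadjusted p under 0.05. Their summed signal, on the log2 scale, was 10.29 and 9.70 on the wild-type arrays and 12.86 and 11.45 on the knock-in arrays. Their lowest single value, 4.46, lay under every array median, and whether liver transcripts were present on each array was not tested. Liver expresses Ppara, Rxra and Ppargc1a too, and the part of liver transcripts in any value below was not tested. In whole tissue, fewer cells of a type and less RNA per cell cannot be told apart.

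No member passed the test in either direction. Over all 24 probe sets 0 passed the test (limma, adjusted p between 0.458 and 0.988), where 0.00666% of all probe sets passed as higher and 0% as lower. At an unadjusted p under 0.05, 1 member probe set was higher (5.07% of all) and 0 were lower (5.62% of all). By sign, 11 were higher, where 41.4% of all probe sets were. The groups did not overlap for 8 of the 24, against 45.2% of all probe sets, with 4 on the higher side (18.5% of all) and 4 on the lower side (26.7% of all). Differences, given throughout as knock-in minus wild-type on the log2 scale, ran from −0.32 to 0.37 with a median of −0.02, against −0.04 over all probe sets. Their median size was 0.11, against 0.13 over all, and the median standard error was 0.12 for both. In 19 of the 24 the gap between arrays of 1 genotype exceeded the difference between genotypes, as it did for 69.4% of all probe sets. The widest bound of any member's 95% interval, for an Esrrg probe set, corresponded to a 1.69-fold change in signal. No interval by itself thus reached a 2-fold change in signal. These intervals, and the standard errors here and below, rest on the spread between these arrays. In them limma combines the spread of the probe set itself with that over all probe sets. A standard error is therefore not the replicate error of 1 probe set alone. A change in transcript number can be larger than that in signal for dim probe sets.

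**Figure D1:**
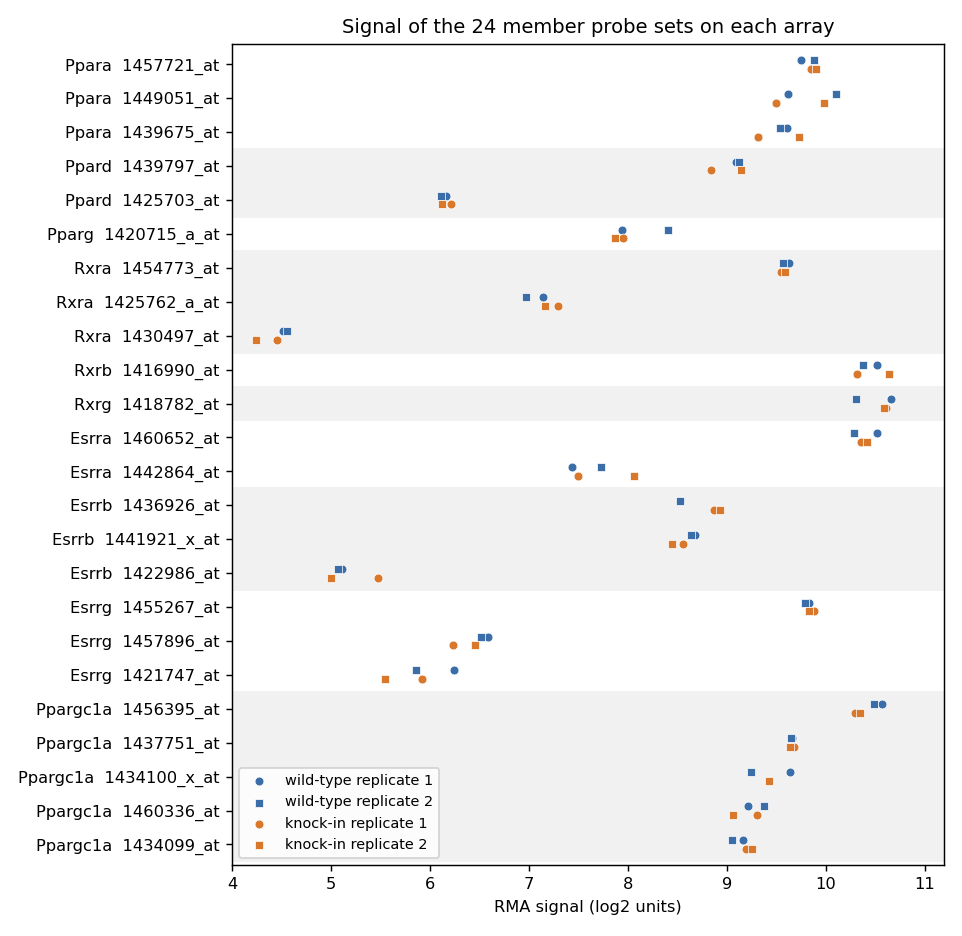
RMA signal (x axis, log2 units) of the 24 probe sets (y axis) on each array, with wild-type in blue and knock-in in orange, and circles and squares for replicates 1 and 2. For 16 of the 24 the blue and orange points overlap in range, and the Esrrb probe set 1436926_at stands apart with both knock-in points above both wild-type points. Signals of different probe sets cannot be ranked against each other.

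Among the PPARs, no probe set separated the genotypes. PPARα, the main PPAR of cardiac muscle, is read by 3 probe sets. Its brightest (1457721_at) read 9.75 and 9.88 in wild-type and 9.85 and 9.90 in knock-in hearts. The knock-in values lie within or just above the wild-type pair, and the difference was 0.06 with a 95% interval from −0.20 to 0.32 (limma adjusted p = 0.846). The second (1449051_at) read 9.62 and 10.10 in wild-type and 9.49 and 9.99 in knock-in hearts. Here the spread within each genotype, 0.48 and 0.49, was several times the difference of −0.12, and replicate 2 was the higher array in both. The third (1439675_at) differed by −0.06, with knock-in values of 9.31 and 9.73 on either side of the wild-type values of 9.61 and 9.54. The mean over the 3 probe sets was −0.04, so the sign for Ppara depended on the probe set.

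PPARδ, which is expressed in most tissues and also acts on fatty acid genes in muscle, read 9.09 and 9.13 in wild-type and 8.85 and 9.15 in knock-in hearts by its brightest probe set (1439797_at). Only knock-in replicate 1 was low, and the difference was −0.11 (95% interval −0.43 to 0.21, limma adjusted p = 0.74). Its other probe set (1425703_at) differed by 0.03, with all 4 values between 6.12 and 6.22. PPARγ, the receptor that governs fat cell differentiation, had a single probe set (1420715_a_at), which read 7.94 and 8.41 in wild-type and 7.95 and 7.87 in knock-in hearts. The difference of −0.26 (95% interval −0.66 to 0.13, limma adjusted p = 0.549) rests on wild-type replicate 2, and it was −0.03 without that array. Of 8 measured fat cell markers 5 were higher and 3 lower, with a summed signal of 13.66 and 13.77 in wild-type and 13.87 and 13.77 in knock-in hearts. Most of that sum is Fabp4, at 13.46 and 13.62 in wild-type and 13.73 and 13.60 in knock-in hearts. The sum therefore says little about the other markers. Adipoq, the adiponectin gene, was high on knock-in replicate 2 alone, at 6.89 against 5.13 to 5.30 on the other arrays. On that array Pparg gave its lowest reading, 7.87.

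The RXRs, obligate partners of the PPARs and of thyroid, retinoid, vitamin D and oxysterol receptors, differed little. RXRα was steady by its brightest probe set (1454773_at), with 9.63 and 9.57 in wild-type and 9.55 and 9.59 in knock-in hearts. Its difference was −0.03, and its interval from −0.28 to 0.22 reaches at most a 1.22-fold change in signal, the tightest bound among the members' brightest probe sets. The other Rxra probe sets separated the genotypes in opposite directions. One (1425762_a_at) read 7.14 and 6.97 in wild-type and 7.29 and 7.16 in knock-in hearts, a difference of 0.17 (limma adjusted p = 0.577). The other (1430497_at) read 4.51 and 4.55 against 4.45 and 4.25, a difference of −0.18 (0.559).

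RXRβ, the broadly expressed form, read 10.52 and 10.38 in wild-type and 10.32 and 10.64 in knock-in hearts (1416990_at). The knock-in arrays bracket the wild-type pair, and the difference was 0.03 (95% interval −0.30 to 0.37). RXRγ, which is found mainly in muscle and brain, read 10.66 and 10.31 in wild-type and 10.61 and 10.59 in knock-in hearts (1418782_at). Both knock-in values fall inside the wild-type range, and the difference of 0.11 (−0.23 to 0.45) turned to −0.06 without wild-type replicate 2.

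The ERRs, orphan receptors that drive genes of oxidative metabolism, held both the highest and the lowest difference of the 24. ERRα read 10.52 and 10.29 in wild-type and 10.36 and 10.41 in knock-in hearts by its brightest probe set (1460652_at). These knock-in values lie inside the wild-type range, and the difference was −0.02 (95% interval −0.31 to 0.27, limma adjusted p = 0.963). Its second probe set (1442864_at) read 7.44 and 7.73 against 7.50 and 8.06. It differed by 0.19, with a gap of 0.57 between the knock-in arrays.

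ERRβ, better known from placenta, inner ear and embryonic stem cells than from the heart, gave the largest difference of the set. Its brightest probe set (1436926_at) read 8.53 and 8.53 in wild-type and 8.87 and 8.93 in knock-in hearts. Both knock-in arrays were higher, by 0.37 with a standard error of 0.10 (95% interval 0.12 to 0.62), and this did not pass over all probe sets (unadjusted p = 0.0106, limma adjusted p = 0.458). A second Esrrb probe set (1441921_x_at) went the other way without overlap, at 8.67 and 8.64 in wild-type and 8.56 and 8.45 in knock-in hearts, a difference of −0.16 (adjusted p = 0.578). The suffix _x_at marks a probe set whose probes may also bind other transcripts. The third (1422986_at) was dim and high on knock-in replicate 1 alone, at 5.47 against 5.11 or less on the others. The 3 Esrrb probe sets averaged 0.12, and the array does not show a change on which they agree.

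ERRγ, the ERR most tied to oxidative muscle and heart, was nearly identical on all arrays by its brightest probe set (1455267_at). It read 9.83 and 9.79 in wild-type and 9.88 and 9.84 in knock-in hearts. The groups lie side by side without overlap, yet the difference was only 0.05 (95% interval −0.20 to 0.30, limma adjusted p = 0.879). The other Esrrg probe sets were dim and lower in knock-in hearts. One (1457896_at) read 6.59 and 6.52 against 6.23 and 6.46, a difference of −0.21 (0.528). The other (1421747_at) read 6.25 and 5.86 against 5.92 and 5.54, a difference of −0.32 (0.521) in which replicate 1 was the higher array in both genotypes.

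PGC-1α, the coactivator that links these receptors to mitochondrial gene expression, is read by 5 probe sets. The brightest (1456395_at) read 10.57 and 10.49 in wild-type and 10.30 and 10.34 in knock-in hearts. Both knock-in values were lower, by 0.21 with a standard error of 0.11 (95% interval −0.46 to 0.05), and the difference did not pass the test (unadjusted p = 0.0926, limma adjusted p = 0.492). Another (1434099_at) separated the genotypes the other way, at 9.16 and 9.06 in wild-type and 9.20 and 9.26 in knock-in hearts, a difference of 0.12 (0.668). In the remaining 3 the groups overlapped. Probe set 1437751_at read 9.66 and 9.65 against 9.68 and 9.64, a difference of 0.01 whose 95% interval ran from −0.24 to 0.25. Probe sets 1434100_x_at and 1460336_at differed by −0.01 and −0.11.

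**Figure D2:**
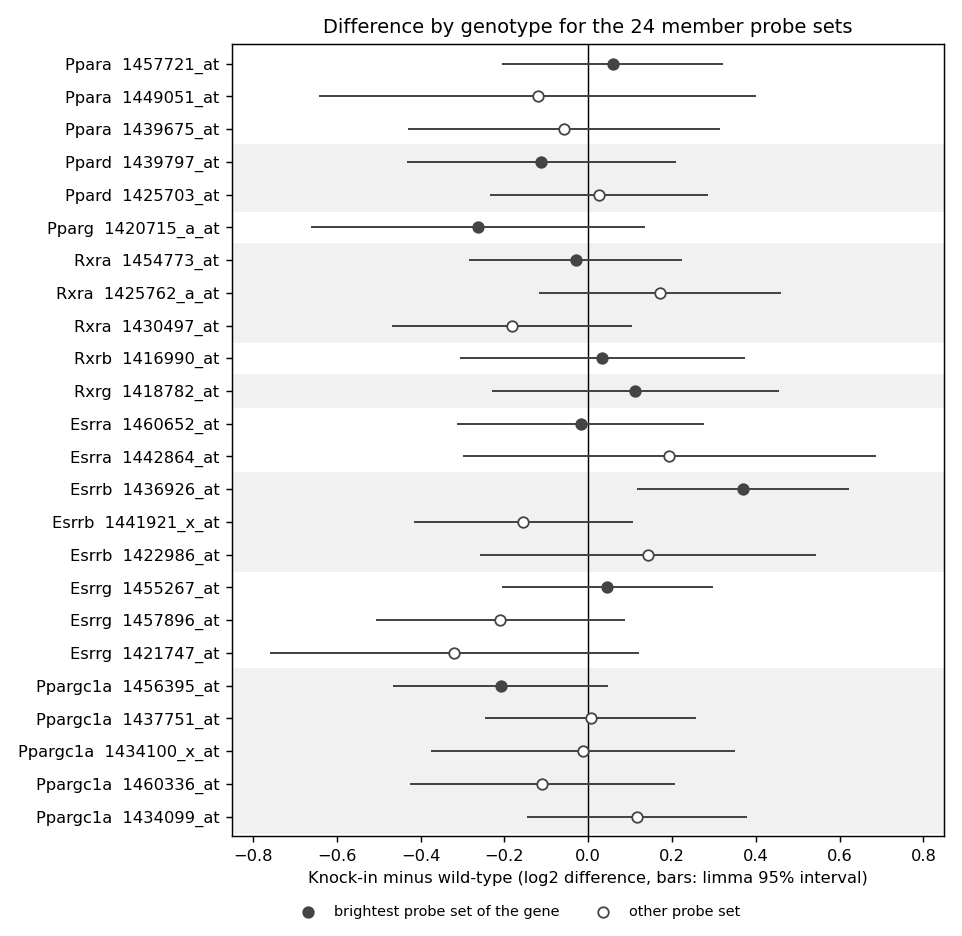
Difference between genotypes (x axis, knock-in minus wild-type, log2 units) of the 24 probe sets (y axis), with limma 95% intervals as bars and filled points for the brightest probe set of each gene. A single interval, that of the Esrrb probe set 1436926_at from 0.12 to 0.62, does not include 0, and each of the 7 genes with several probe sets has points on both sides of 0.

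Probe sets of 1 gene disagreed in sign for all 7 members that have several. How often this happens over all genes with several probe sets was not counted, so it is not read as a trait of the members. The spread between probe sets of a gene reached 0.53 for Esrrb, from −0.16 to 0.37, and 0.36 for Esrrg, from −0.32 to 0.05. Over the whole array the difference moved with signal level, and its part in these disagreements was not tested. Probe sets with a mean under 7 had a median difference of −0.09 and those with a mean of at least 7 a median of 0.06. Of the 24 member probe sets 5 had a mean under 7, and their median was −0.18. The other 19 had a median of −0.01, with 9 higher and 10 lower. Over the whole array, 63.6% of the 17215 probe sets this bright lay above 0. The brightest probe sets of the 10 members all had a mean of at least 7, and 5 lay above 0 and 5 below it, where 65% of all genes with such a mean lay above 0. These shares are given as a description and were not tested.

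**Figure D3:**
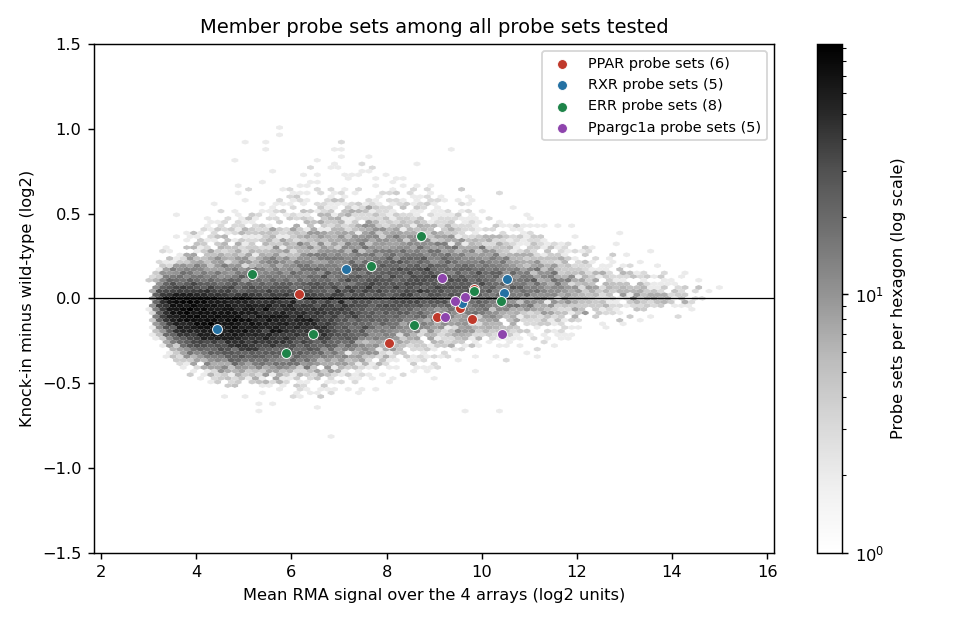
Difference between genotypes (y axis, log2) against mean signal over the 4 arrays (x axis, log2 units) for all probe sets tested (grey hexagons, log count scale), with the member probe sets coloured by family. The 53 probe sets beyond 1.5 in either direction are not drawn. Members lie within the grey cloud, whose median is −0.09 for a mean under 7 and 0.06 for a mean of at least 7.

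With so few arrays many genes share a profile with any member, so likeness is given as a description of 4 arrays only. Over genes with a mean of at least 7, the profiles nearest to that of Esrrb were Tnfaip8, Zfand5 and Nsun2, with root mean square distances of 0.0122, 0.0142 and 0.0143 between centred log2 values. Nearest to Ppara were Kcnj8, 2410004B18Rik and Ppp1r11, at 0.00298, 0.00359 and 0.00523. Nearest to Ppargc1a were Alpk3, Gpatch4 and Foxf1, at 0.00834, 0.00891 and 0.0104.

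Among the other nuclear receptors 0 passed the test (limma) in either direction. Of 12 measured receptors that pair with RXR, 6 lay above 0 and 6 below it, the median was −0.03, and 0 had an unadjusted p under 0.05. The retinoic acid receptor gene Rarb had the smallest p, at 8.002 and 8.16 in wild-type and 8.29 and 8.31 in knock-in hearts (limma adjusted p = 0.495). Nr4a1, an early response receptor gene, differed by 0.15 and Nr1i3, a liver xenobiotic receptor gene, by 0.13. Of 23 further receptors 10 lay above 0 and 13 below it, and the median was −0.01. An unadjusted p under 0.05 was reached by 2 of them. These were Nr1d2, at 0.44 with its other probe set at 0.25, and the progesterone receptor gene Pgr, at −0.29. Nr1d2 encodes the circadian repressor REV-ERBβ. Pgr was dim, with a mean of 4.73, and its other probe sets lay at −0.29 and −0.09. Nr2f1, with a mean of 5.15, differed by 0.30. Only 6 of the 12 and 13 of the 23 receptors had a mean of at least 7. Among all probe sets with a mean under 7, 72.2% lay below 0. For comparison, over all 18193 genes the median was −0.01 and 46.9% lay above 0. The test was passed by 0.011% of genes as higher and 0% as lower, and an unadjusted p under 0.05 was reached by 5.45% on the higher and 4.76% on the lower side.

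Coregulators that share PGC-1α's role or oppose it were mixed. Of 20 measured genes 11 lay above 0 and 9 below it, the median was 0.02, and 0 passed the test (limma). All 20 had a mean of at least 7, where 65% of all genes lay above 0 with a median of 0.06. The unadjusted p was under 0.05 for 2 on the higher and 0 on the lower side, against 5.45% and 4.76% of all genes. Nrip1, which encodes the corepressor RIP140, read 9.05 and 8.90 in wild-type and 9.25 and 9.27 in knock-in hearts (limma adjusted p = 0.459). Its 5 other probe sets lay between −0.14 and 0.35. Sirt1, a deacetylase of PGC-1α, read 6.95 and 7.42 against 7.62 and 7.57, with wild-type replicate 1 the low array. Perm1, a muscle factor acting with PGC-1α and ERRα, read 11.86 and 11.84 against 12.05 and 12.13, a difference of 0.24, while its other probe set lay at −0.27. Ppargc1b, the gene of the related coactivator PGC-1β, read 11.40 and 11.57 in wild-type and 11.10 and 11.37 in knock-in hearts, a difference of −0.25 (limma adjusted p = 0.505). Its difference thus had the sign of the brightest Ppargc1a probe set, and neither passed.

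Genes that act on Ppargc1a, among them kinases, CREB, MEF2 and FoxO factors, were also mixed. Of 18 measured genes 8 lay above 0 and 10 below it, the median was −0.05, and 0 passed the test (limma). Of the 18, 16 had a mean of at least 7, where 65% of all genes lay above 0 with a median of 0.06. The unadjusted p was under 0.05 for 4 on the higher and 2 on the lower side, against 5.45% and 4.76% of all genes. The list includes Gsk3a itself, which was 1 of the 2 lower genes. The other was the AMPK subunit gene Prkaa2, at −0.32. The 4 higher genes were Foxo1, Prkag2 and the AMPK subunit genes Prkaa1, at 0.64 with a mean of 5.06, and Prkab2, at 0.29. The smallest p was that of Foxo1, an Akt-restrained transcription factor gene, at 8.82 and 8.78 in wild-type and 9.18 and 9.28 in knock-in hearts. It differed by 0.43 (limma adjusted p = 0.458), and its 3 other probe sets lay at 0.32, 0.11 and −0.11. Prkag2, which encodes a cardiac AMPK subunit, read 7.78 and 7.79 against 8.10 and 8.21 (0.458). Its 3 other probe sets lay at 0.54, 0.43 and −0.07. Gsk3b, the gene of the sister kinase, differed by −0.09 by its brightest probe set. The 5 others ranged from −0.45 to 0.06. One of these was lower without overlap, at 9.11 and 9.17 in wild-type and 8.52 and 8.88 in knock-in hearts, a difference of −0.44 (unadjusted p = 0.0208, limma adjusted p = 0.458).

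Genes that these receptors are known to act on showed no shift past the test. Of 28 measured PPAR targets 15 lay above 0 and 13 below it, the median was 0.0043, and 0 passed (limma). Of the 28, 26 had a mean of at least 7, where 65% of all genes lay above 0 with a median of 0.06. The unadjusted p was under 0.05 for 0 on the higher and 5 on the lower side, against 5.45% and 4.76% of all genes. The acyl-CoA thioesterase gene Acot1 read 9.09 and 9.18 in wild-type and 8.71 and 8.80 in knock-in hearts, a difference of −0.38. Acot2 read 12.28 and 12.20 against 11.93 and 11.78 by its brightest probe set, a difference of −0.38, and differed by −0.03 by the other. The hormone gene Fgf21 read 6.23 and 6.17 against 5.68 and 5.92, a difference of −0.40. For all 3 the limma adjusted p was 0.458. The fatty acid transporter gene Cd36 read 13.29 and 13.22 in wild-type and 13.43 and 13.33 in knock-in hearts, a difference of 0.13, and its other probe sets lay at 0.12 and −0.09. Fabp3, which encodes the heart fatty acid binding protein, differed by 0.10 by its brightest probe set. Its second probe set went the other way without overlap, at 8.45 and 8.51 in wild-type and 7.89 and 8.17 in knock-in hearts, a difference of −0.45 (unadjusted p = 0.0116, limma adjusted p = 0.458). The lipase inhibitor gene Angptl4 differed by 0.11 and Pdk4, which encodes a brake on pyruvate use, by −0.06, with 95% intervals that include 0.

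Of 28 measured targets of ERRs and PGC-1α in mitochondrial respiration and biogenesis, 22 lay above 0 and 6 below it, the median was 0.06, and 0 passed the test (limma), with 0 at an unadjusted p under 0.05 in either direction. Bright genes as a whole were higher on these arrays: the difference was above 0 for 69.1% of genes with a mean of at least 10, whose median was also 0.06. After cyclic loess, which removes a level-dependent difference, 17 of the 28 were higher with a median of 0.03, against 46.7% of the bright genes. The mitochondrial transcription factor gene Tfam read 8.996 and 9.29 in wild-type and 9.41 and 9.41 in knock-in hearts (limma adjusted p = 0.487), and its other probe set differed by 0.08. The fusion gene Opa1 differed by 0.17 by its brightest probe set. Its other probe sets lay at 0.39 (higher without overlap, unadjusted p = 0.0141, limma adjusted p = 0.458) and 0.05. Gabpa, which encodes a subunit of nuclear respiratory factor 2, differed by 0.30, with wild-type replicate 1 low at 9.14 against 9.80 to 9.87 on the other arrays, and by 0.17 by its other probe set.

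Retinoid handling, the source of RXR and RAR ligands, held the largest single difference of the 7 lists around the members, that of Rbp4. Of 12 measured genes 4 lay above 0 and 8 below it, the median was −0.14, and 0 passed the test (limma). Only 5 of the 12 had a mean of at least 7. Among all probe sets with a mean under 7, 72.2% lay below 0. The unadjusted p was under 0.05 for 2 on each side, where 5.45% of all genes were higher and 4.76% lower at this cut. Aldh1a1, a retinaldehyde dehydrogenase gene, read 8.91 and 8.75 in wild-type and 9.48 and 9.40 in knock-in hearts, a difference of 0.61 (limma adjusted p = 0.416). Rbp4, which encodes the plasma retinol carrier, read 6.03 and 5.44 against 8.43 and 7.11, a difference of 2.03 (0.444). Lrat, the retinol esterifying enzyme gene, read 4.44 and 4.36 against 4.11 and 3.98, a difference of −0.35. Liver also expresses Aldh1a1 and Rbp4. Both were highest on knock-in replicate 1, next on knock-in replicate 2 and lowest on wild-type replicate 2, and the part of liver transcripts in them was not tested. The median of the 15 liver markers was 8.58, 6.95, 5.97 and 5.65 on knock-in replicates 1 and 2 and wild-type replicates 1 and 2, the same order. Among markers of other cells, 8 of 8 for fibroblasts, 7 of 8 for endothelium and 7 of 8 for macrophages were higher, with medians of 0.17, 0.18 and 0.11. Their summed signals lay between 14.47 and 14.48, 12.99 and 13.12, and 13.27 and 13.38 in wild-type, and between 14.55 and 14.69, 13.08 and 13.29, and 13.39 and 13.48 in knock-in hearts. All these markers had a mean of at least 7, where 65% of all genes lay above 0 with a median of 0.06. After quantile normalisation or cyclic loess 8, 6 and 6 of the 8 were higher. Of all genes with such a mean 47.2% and 50.1% were then higher. The 3 medians became 0.11, 0.11 and 0.07, and 0.10, 0.10 and 0.09. Of 9 skeletal muscle markers 8 were lower, with a median of −0.10 and summed signals of 9.22 and 8.96 against 8.94 and 8.93. All 9 had a mean under 7, where 72.2% of all probe sets lay below 0, and after quantile normalisation or cyclic loess 6 of the 9 were lower. The part of these cell types in the receptor values was not tested.

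**Figure D4:**
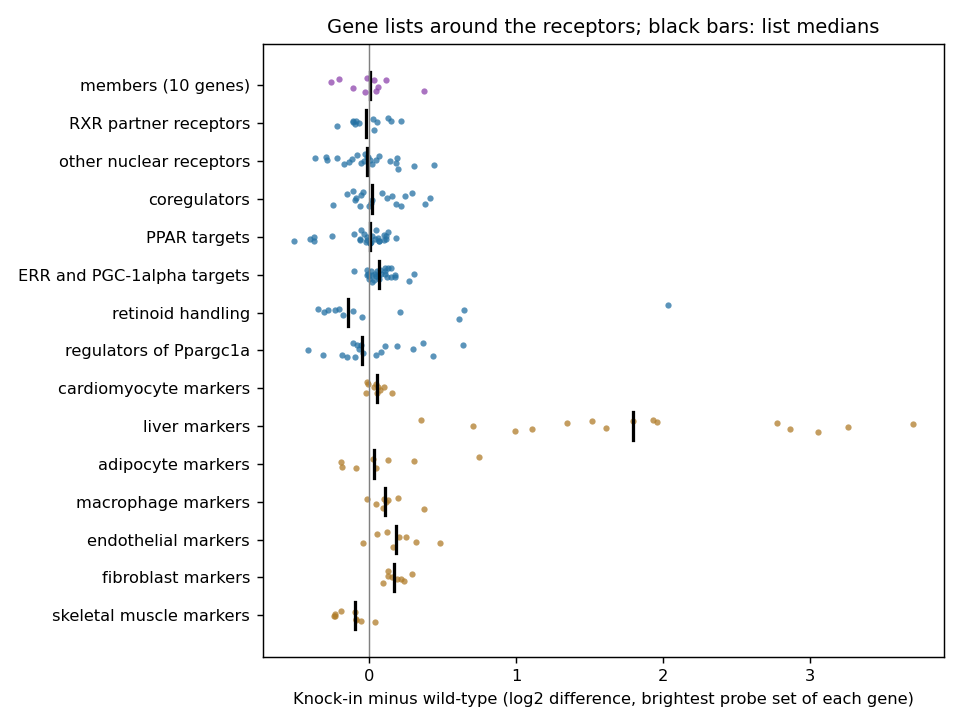
Difference between genotypes (x axis, knock-in minus wild-type, log2) of the brightest probe set of each gene, by list (y axis), with points for genes and black bars for list medians. The medians of the members and of the 7 lists around them lie between −0.14 and 0.06, and that of the liver markers at 1.797.

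How far each member's value moved with the processing is shown for its brightest probe set. Of the 14 alternatives 6 change only the test, by their construction, and leave each member's difference as it is. Under the other 8, Esrrb stayed above 0, between 0.12 and 0.43, and Ppargc1a below it, between −0.29 and −0.04. Pparg stayed below 0 under the 7 of these that apply to a single probe set, between −0.49 and −0.03. The other 7 members turned sign under at least 1 alternative. Under all alternatives the lowest limma adjusted p of any member was 0.23, for Esrrb without wild-type replicate 2, with a range of 0.23 to 0.886 for that gene. Quantile normalisation and cyclic loess each left 2 of the 10 members higher and 8 lower, with medians of −0.06 and −0.07, and a shift of the arrays to 1 median left 7 higher and 3 lower, with a median of 0.07. Of all genes with a mean of at least 7, 47.2%, 50.1% and 77.8% were then higher, with medians of −0.01, 0.00042 and 0.12. The side of 0 on which the members lay therefore depended on the scaling, which moved these genes too. The member median was below that of these genes as reported, under these 3 scalings and with each array left out. This was not tested. The lists around the members were as easily moved. Quantile normalisation and cyclic loess took the median of the PPAR targets to −0.03 and −0.05 and that of the coregulators to −0.07 and −0.06. With arrays shifted to 1 median the RXR partners lay at 0.04, the further receptors at 0.05 and the regulators of Ppargc1a at 0.0099. The median of the ERR and PGC-1α targets stayed above 0 under these 3 scalings and with each array left out. That of genes with a mean of at least 10 did so too, except after quantile normalisation and cyclic loess (−0.01 each, against 0.03). With arrays shifted to 1 median both were 0.12. The targets lay below these genes without wild-type replicate 1 (0.02 against 0.06) or knock-in replicate 1 (0.05 against 0.10). They lay above them without wild-type replicate 2 (0.06 against 0.05) or knock-in replicate 2 (0.08 against 0.02). The median of retinoid handling stayed below 0 except without wild-type replicate 2, where it was 0.02.

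**Figure D5:**
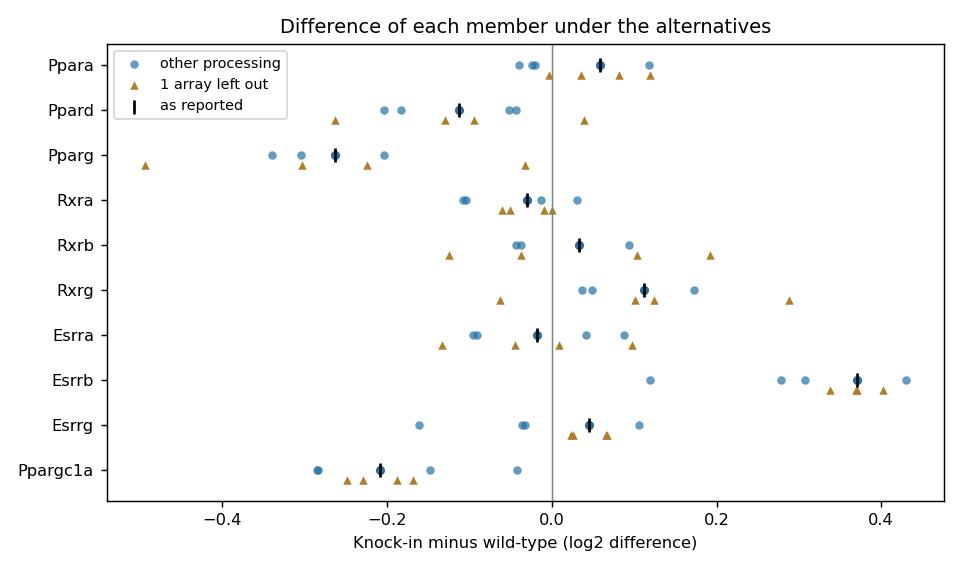
Difference between genotypes (x axis, knock-in minus wild-type, log2) of the brightest probe set of each member (y axis), as reported (black bar), with other processing (blue circles, among them the mean over a gene's probe sets) and with 1 array left out (brown triangles). Esrrb lies to the right of 0 and Ppargc1a and Pparg to the left under all settings drawn, while the other 7 members have points on both sides.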

How the data were processed

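The authors deposited log2 values that RMA had computed for each probe set on each array in Affymetrix Expression Console, as the submitters' processing notes name both. RMA includes a quantile step, which reduces a shift shared by most genes, though the medians of the deposited arrays still differed. The wild-type arrays were normalised with these knock-in arrays alone, per the labels. Software versions and filters were not given in the sources used here.

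Of 45101 probe sets 64 controls were left out. Names came from the array annotation, and the probe set of highest mean over the arrays stood for its gene. All 10 members matched RefSeq by gene ID. Of 234 list entries 217 had a single-symbol probe set. The fit used limma 3.58.1 under R 4.3.3 (lmFit, eBayes, no covariate; 2 residual and 4.54 prior degrees of freedom), with Benjamini-Hochberg adjustment over 45037 probe sets and a threshold of 0.05. With 2 arrays against 2 an exact two-sided permutation test cannot go below 0.333, so none was used. Precision is limited by the number of arrays. From each list the 3 genes of smallest p and a few preset genes were named. The members and lists were chosen with earlier results of these data known. The alternatives covered the prior, dim and cross-hybridising probe sets, scaling, weighted arrays, a block for the replicate number, leaving out each array, the threshold and the mean over probe sets. Python 3.11.15, pandas 2.3.3 and matplotlib 3.10.9 were used for tables and plots.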

Additional observations from a re-analysis of the deposited data

How the results depend on the processing

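With 2 arrays a genotype, the 95% intervals of the member probe sets were between 0.50 and 1.04 wide on the log2 scale. Under all settings run, 0 member probe sets passed limma's test, also with the threshold at 0.1. Over all probe sets, 3 passed as reported, 1 with a mean of at least 7, 11 with arrays shifted to 1 median, 5 at a threshold of 0.1, and 0 to 2 with 1 array left out. Same-numbered arrays deviated together only weakly (correlation 0.085 over probe sets), and nothing in the labels pairs them. With the replicate number as a block, 4 probe sets passed over all and 0 among the members.

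Under the 8 alternatives that can move a member's difference, 19 of 77 values turned sign, and the cause was not tested. Quantile normalisation and cyclic loess turned Ppara to −0.024 and −0.020, Rxrb to −0.037 and −0.043, and Esrrg to −0.036 and −0.033. Shifting the arrays to 1 median turned Rxra to 0.030 and Esrra to 0.042. The mean over a gene's probe sets turned Ppara to −0.040, Esrra to 0.087 and Esrrg to −0.16. With 1 array left out, Ppara lay between −0.0033 and 0.12, Ppard between −0.26 and 0.039, Rxra between −0.060 and 0.00018, Rxrb between −0.12 and 0.19, Rxrg between −0.063 and 0.29, and Esrra between −0.13 and 0.097.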

Other observations

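One further probe set (1447902_at) is annotated to Ppard together with 1810013A23Rik and was therefore not counted among the members. It read 7.41 and 7.16 in wild-type and 7.33 and 6.98 in knock-in hearts, with overlapping groups and a difference of −0.13 (95% interval −0.51 to 0.24, limma adjusted p = 0.738).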
